A study of Mus musculus with 8 samples.

Results

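The genes described here are the enzymes and cofactors that set, keep and remove DNA methylation in mouse embryonic stem (ES) cells. They were chosen by symbol, 9 of the 23284 gene entries in the deposited expression table. The 9 genes are the maintenance pair Dnmt1 and Uhrf1, the de novo group Dnmt3a, Dnmt3b and Dnmt3l, the oxidases Tet1, Tet2 and Tet3, and the DNA glycosylase gene Tdg. All 9 were found, 1 entry each, and all 9 had at least 1 FPKM in each of the groups, so no member was lost to the minimum of 1 FPKM used for list medians. FPKM counts sequenced fragments relative to transcript length and to all mapped fragments.

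RNA sequencing compared 2 clonal mouse ES cell lines of mixed strain, each with 2 µg/ml doxycycline and without it. The transgenic one, clone 6, carries a Ctcfl transgene that doxycycline is meant to switch on, and the non-transgenic one, clone 7, carries none. The groups were therefore the transgenic clone with doxycycline, the transgenic clone without it, the non-transgenic clone with doxycycline and the non-transgenic clone without it. All cells were grown on mouse embryonic fibroblast feeders and replated without them for 48 h. Ctcfl, also called BORIS, is a germline relative of the insulator protein Ctcf. The lines are 1 clone each, so the transgene and any other difference between the clones cannot be told apart. Each group held 2 libraries, for which the authors deposited 1 combined FPKM value per gene. Levels therefore carry no SD, and the depth of the libraries is unknown. The labels call the libraries biological replicates. The sample titles carry 1 of 2 tags that recur in every group, 1 library of each group per tag. The tags do not say what they mark, and the combined values do not keep them apart.

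DNA methylation in mammals is the addition of a methyl group to cytosine, mostly where a guanine follows (CpG). Dnmt3a and Dnmt3b write new methylation, with Dnmt3l as a partner that has no catalytic activity of its own, and Dnmt1 copies the pattern to the new strand after replication, guided by Uhrf1, which binds CpG methylated on 1 strand. Tet enzymes oxidise 5-methylcytosine step by step, and Tdg excises the later products so that base excision repair can put back an unmodified cytosine. Mouse ES cells are known for high Dnmt3b, Dnmt3l and Tet1 and for the ability to live without DNA methylation.

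Dnmt3l and Tet2 had the widest ranges of level over the groups, and upstream windows of these 2 genes are printed here to show how far their CpG content lies apart. Windows that touch an exon of the GENCODE annotation are not printed. The sequences are from RefSeq, build GRCm38.p6, and run 5′ to 3′ on the gene's strand, each being the 250 bases before an annotated start. Capitals mark each CpG. RefSeq gives 3 starts for Dnmt3l, and the second and the third are shown. The second lies at chr10:78049592-78049841 and the third at chr10:78055085-78055334, both on the plus strand and inside the annotated span of the gene. The Tet2 window lies at chr3:133544391-133544640 on the minus strand.
Dnmt3l start 2: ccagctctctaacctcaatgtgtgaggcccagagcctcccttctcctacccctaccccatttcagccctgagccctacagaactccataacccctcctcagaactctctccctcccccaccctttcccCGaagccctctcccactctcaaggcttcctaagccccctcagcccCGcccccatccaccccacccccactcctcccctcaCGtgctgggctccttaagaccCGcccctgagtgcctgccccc
Dnmt3l start 3: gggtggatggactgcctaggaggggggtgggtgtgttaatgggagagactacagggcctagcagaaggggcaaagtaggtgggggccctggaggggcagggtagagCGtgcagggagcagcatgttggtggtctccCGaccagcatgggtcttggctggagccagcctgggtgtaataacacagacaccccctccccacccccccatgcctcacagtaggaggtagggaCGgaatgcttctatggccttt
Tet2: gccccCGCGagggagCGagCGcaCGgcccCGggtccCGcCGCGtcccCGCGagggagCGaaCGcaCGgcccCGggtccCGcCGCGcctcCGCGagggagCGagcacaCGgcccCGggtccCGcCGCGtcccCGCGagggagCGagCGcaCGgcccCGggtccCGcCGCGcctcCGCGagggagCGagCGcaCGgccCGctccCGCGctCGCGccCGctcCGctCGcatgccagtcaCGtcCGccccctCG
The Tet2 window holds 51 CpG and is 83.6% G and C, and 99.9% of 32851 windows of the same length hold fewer CpG. The Dnmt3l windows hold 5, 4 and 3 CpG at the first, the second and the third start, near the median of 6 over all windows. A GC box, searched as GGGCGG on both strands, occurs 2 times in the second Dnmt3l window and 1 time in the Tet2 window, and 32.7% of all windows hold one. Upstream of Tet1 the window has 15 CpG and 1 GC box, but the RefSeq start it belongs to lies outside the deposited locus of that gene. After Tet2, most CpG were counted at the second Dnmt3a start, with 40, and at the first, with 38, while Dnmt3b had 21, Tdg 19 and Tet3 17. Across the 3 starts of Dnmt1 the windows held 26, 7 and 2 CpG, and across the 2 starts of Uhrf1 10 and 30. Starts are numbered by rising coordinate, so the first start of Dnmt1, a minus-strand gene, is its farthest downstream. An E2F site searched as TTTNGCGC, a motif of genes induced at S phase, was found at the first Dnmt1 start and the second Uhrf1 start, and in 1.13% of all windows. These matches describe the sequence and do not show binding.

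The de novo methyltransferase Dnmt3b was the most abundant member. It stood at 331 and 424 FPKM in the transgenic clone with and without doxycycline, against 397 and 430.2 FPKM in the non-transgenic clone with and without it. Its catalytic relative Dnmt3a stood at 23.0 and 28.6 FPKM in the transgenic clone with and without doxycycline, against 36.5 and 36.0 FPKM in the non-transgenic clone. Dnmt3b was therefore 14.4 and 14.8 times as high as Dnmt3a in the transgenic clone with and without doxycycline, and 10.9 and 11.9 times as high in the non-transgenic clone, on the length-scaled FPKM level.

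Dnmt3l stood at 129.9 and 119.6 FPKM in the transgenic clone with and without doxycycline, against 230.1 and 206 FPKM in the non-transgenic clone. Both transgenic values were below both non-transgenic values. Per unit of Dnmt3b, the level of Dnmt3l was 0.393 and 0.282 in the transgenic clone with and without doxycycline, against 0.580 and 0.480 in the non-transgenic clone. The summed level of the catalytic pair Dnmt3a and Dnmt3b was 354 and 452 FPKM in the transgenic clone, against 433 and 466 FPKM in the non-transgenic clone, in the same order of medium.

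Of the maintenance pair, Dnmt1 stood at 65.3 and 68.1 FPKM in the transgenic clone with and without doxycycline, against 69.7 and 68.8 FPKM in the non-transgenic clone. Its 4 values span a factor of 1.07, the narrowest range of the members. Uhrf1 stood at 98.1 and 101 FPKM in the transgenic clone, against 113 and 109 FPKM in the non-transgenic clone. Its level was between 1.48 times that of Dnmt1, in the transgenic clone without doxycycline, and 1.61 times, in the non-transgenic clone with it.

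Tet1 was the main oxidase transcript. It stood at 14.7 and 14.6 FPKM in the transgenic clone with and without doxycycline, against 25.1 and 20.7 FPKM in the non-transgenic clone. Tet2 stood at 2.36 and 2.07 FPKM in the transgenic clone, against 4.31 and 3.38 FPKM in the non-transgenic clone. As with Dnmt3l, both transgenic values of Tet1 and of Tet2 lay below both non-transgenic values. Tet3, which is best known for its role in the zygote, stood at 2.33 and 2.45 FPKM in the transgenic clone and at 2.37 and 2.57 FPKM in the non-transgenic clone. The summed level of the Tet genes was 19.34 and 19.12 FPKM in the transgenic clone, against 31.7 and 26.7 FPKM in the non-transgenic clone. Tet1 made up 75.8% and 76.3% of that sum in the transgenic clone and 79.0% and 77.7% in the non-transgenic clone. Tet2 was 1.01 and 0.845 times as high as Tet3 in the transgenic clone, and 1.82 and 1.31 times as high in the non-transgenic clone.

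Tdg stood at 14.64 and 18.65 FPKM in the transgenic clone with and without doxycycline, and at 19.11 and 19.06 FPKM in the non-transgenic clone with and without it. These values are the least certain of the members. Of the 75-base words of its longest coding transcript, the read length used here, 55.8% also occur in other annotated genes, among them the processed copies Tdg-ps with 36.3% of the words and Gm9855. Gm9855, whose RefSeq name is Tdg-ps2, was itself at 55.9 and 57.8 FPKM in the transgenic clone and at 56.9 and 58.7 FPKM in the non-transgenic clone. No source used here says how reads that fit several genes were shared out. Uhrf1 shares 11.3% of its words with Gm5648 and Dnmt3b 7.72% with Dnmt3c, while the other members share 0.0%.

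**Figure D1:**
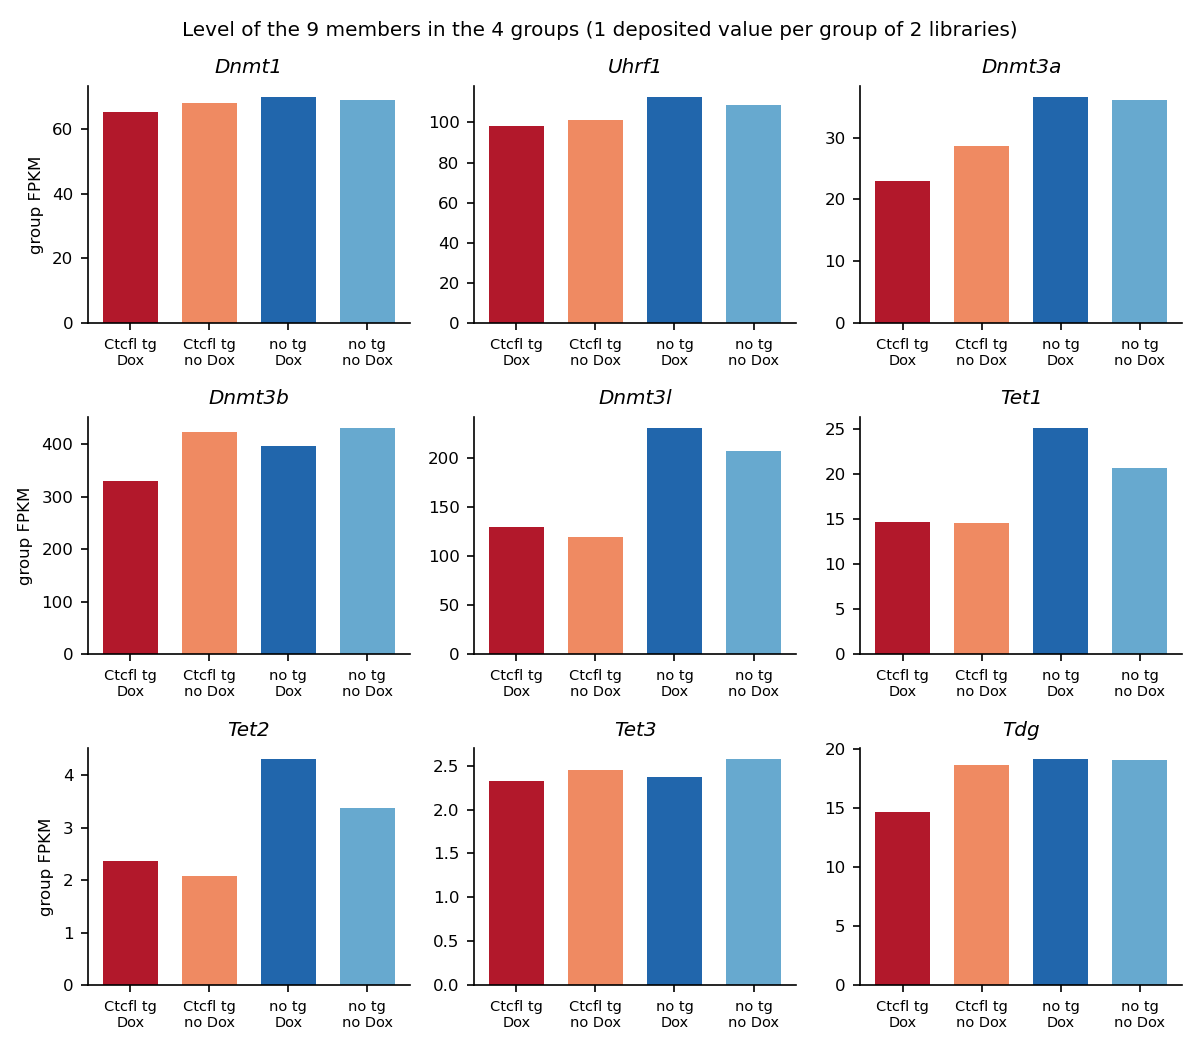
Level of each member in group FPKM (vertical axes, linear, starting at 0) in the 4 groups, with 1 bar for the authors' combined value of 2 libraries and no error bar because no value per library was used. The red and the orange bar of the transgenic clone are lower than both blue bars of the non-transgenic clone for Dnmt3l, Tet1, Tet2 and also Dnmt1, Uhrf1, Dnmt3a and Tdg, with the highest over lowest ratio running between 1.07 for Dnmt1 and 2.08 for Tet2.

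Ordered by level, Dnmt3l, Tet1 and Tet2 had the same sequence of groups. The non-transgenic clone with doxycycline was highest, then the non-transgenic clone without it, the transgenic clone with it and the transgenic clone without it. Dnmt1, Uhrf1, Dnmt3a and Tdg differed from that order in the last 2 places, where the transgenic clone with doxycycline was lowest. For Dnmt3b and Tet3 the order was the non-transgenic clone without doxycycline, the transgenic clone without it, the non-transgenic clone with it and the transgenic clone with it. Of the 27 pairs of groups next to each other in these orders, 0 had a q under 0.05 in the authors' deposited table. The smallest p among them was 0.0008, for Dnmt3l in the transgenic clone with doxycycline at 129.9 FPKM against the non-transgenic clone without it at 206 FPKM, with a q of 0.0704 in the authors' deposited table. The same pair had a p of 0.00685 for Tet1 (q = 0.316) and of 0.0329 for Tet2 (q = 0.785) in the authors' deposited table. A pair of neighbours lies closer by construction than the ends of its order. For Dnmt3l, Tet1 and Tet2 the ends were the transgenic clone without and the non-transgenic clone with doxycycline. Their log2 differences were -0.94, -0.78 and -1.05, each at a q of 0.00812 in the authors' deposited table. A normal approximation for the deposited statistic gave p of 0.000115, 0.0375 and 0.0310. These ends were picked by the levels themselves.

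The members' places among all genes at 1 FPKM or more ran over most of the scale. In the transgenic clone with doxycycline Dnmt3b ranked 293 of 12092 genes, Dnmt3l 754, Uhrf1 988 and Dnmt1 1519. Tet1 ranked 5264 and Tdg 5268, with Dnmt3a ahead of them at 3879. Tet2 and Tet3 ranked 10511 and 10534, among the lowest expressed genes. In the non-transgenic clone with doxycycline Dnmt3l ranked 422, Dnmt3a 2663 and Tet1 3641 of 12033 genes, and Tet2 8949. Tet3 was at almost the same place in both clones, 10534 against 10458.

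The first comparison was that of the clones in the presence of doxycycline. Dnmt3l was 0.565 times as high in the transgenic clone as in the non-transgenic clone, Tet1 0.584 times and Tet2 0.548 times, and these 3 members fell while 6 did not pass the threshold, a q under 0.05 in the authors' deposited table. They are the cofactor of de novo methylation and the oxidases Tet1 and Tet2. In the same comparison 0.666% of 13064 tested genes were called lower, 1.52% in either direction. In bulk RNA fewer cells of a type and less RNA per cell cannot be told apart.

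For Dnmt3l the log2 difference was -0.82 (SE 0.29, p = 0.0001, q = 0.0145) in the authors' deposited table. That of Tet1 was -0.77 (SE 0.31, p = 5e-05, q = 0.00812) and that of Tet2 -0.87 (SE 0.50, p = 0.00045, q = 0.0462) in the authors' deposited table. The SE is the deposited log2 ratio over the deposited test statistic, and it covers the spread that the authors' model assigned to 2 libraries per group. Those p-values are smaller than a normal approximation gives for the deposited statistic, which is 0.00431 for Dnmt3l, 0.0126 for Tet1 and 0.0845 for Tet2. With such normal p-values, adjusted over the tests of all 6 comparisons, 0 members were called, while 153 genes of the table (1.17%) were. This setting was added after the deposited values were seen.

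Dnmt3a was 0.629 times as high in the transgenic clone, with a log2 difference of -0.67 (SE 0.29, p = 0.0008, q = 0.0704) in the authors' deposited table, and did not pass. Adjusted within this comparison alone, its p was 0.0475 in place of 0.0704, and 4 members were then called lower, against 0.735% of all tested genes. Dnmt3b differed by -0.26 (SE 0.25, p = 0.134) and Uhrf1 by -0.20 (SE 0.26, p = 0.297) on the log2 scale in the authors' deposited table. For Dnmt1 the difference was -0.10 (SE 0.28, p = 0.623) and for Tet3 -0.02 (SE 0.41, p = 0.926) in the authors' deposited table. Tdg, at -0.39, had an SE of 0.90 (p = 0.477) in the authors' deposited table, an error larger than the difference seen in Dnmt3l. Exon bases that overlap another gene touch some of these values, since no source used here gives the strand setting of the counting. Aire, transcribed from the minus strand over exons of Dnmt3l, was at 5.04 and 5.87 FPKM in the transgenic clone. In the non-transgenic clone Aire was at 7.92 and 9.18 FPKM, and all its values were well below Dnmt3l itself. The deposited locus of Dnmt3l starts at 78030031, ahead of the GENCODE start of the gene at 78041947. What that stretch adds to the Dnmt3l value was not tested. Dnmt3a and Tet2 each overlap an antisense gene, Dnmt3aos and Gm42567. Tdg shares exon bases with Glt8d2 on the minus strand, which the deposited locus of Tdg also spans and which was at 0.301 and 0.370 FPKM in the transgenic clone and at 0.432 and 0.293 FPKM in the non-transgenic clone.

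The second comparison was that of the clones in medium with no doxycycline. Dnmt3l fell again, to 0.579 times its level in the non-transgenic clone, with a log2 difference of -0.79 (SE 0.23, p = 5e-05, q = 0.00812) in the authors' deposited table. It was the 1 member of 9 that was called, where 0.575% of 13047 tested genes were called lower and 1.37% in either direction. Tet1 was 0.705 times as high in the transgenic clone (log2 -0.51, SE 0.36, p = 0.00515, q = 0.263) and Tet2 0.614 times (log2 -0.70, SE 0.47, p = 0.00365, q = 0.207) in the authors' deposited table, and neither passed. Dnmt3a stood at -0.33 (SE 0.30, p = 0.0686) in the authors' deposited table. The other 5 members lay between -0.11 for Uhrf1 and -0.01 for Dnmt1, with p between 0.534 and 0.940 in the authors' deposited table. By the normal approximation the p of Dnmt3l was 0.000638, which became 0.0723 after adjustment, and 0 members were called, against 134 genes of the table (1.03%). Adjusted within this comparison alone, Dnmt3l was again the 1 member called, against 0.636% of the tested genes called lower.

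By level alone, each of the 9 members was lower in the transgenic clone with doxycycline and without it, except that Tet3 with doxycycline stood at 0.0002 above 0 on the log2 scale once centred on the median of all genes. The same held for 38.6% of 12853 genes tested in both comparisons, and the 2 comparisons share no library but share their clones. The difference in log2 ratio between the comparisons is the same quantity as the difference between the doxycycline responses tested below, and it was not called for any member. A level lower by a factor of 1.5 or more in both comparisons was found for Dnmt3l and Tet2 with the authors' group values, and for 2.65% of all genes. With a pseudocount of 1 FPKM, Tet2 without doxycycline stood at -0.51 on the log2 scale and no longer met it. Tet1 and Dnmt3a met it with doxycycline, at 0.584 and 0.629 times, and not without it.

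**Figure D2:**
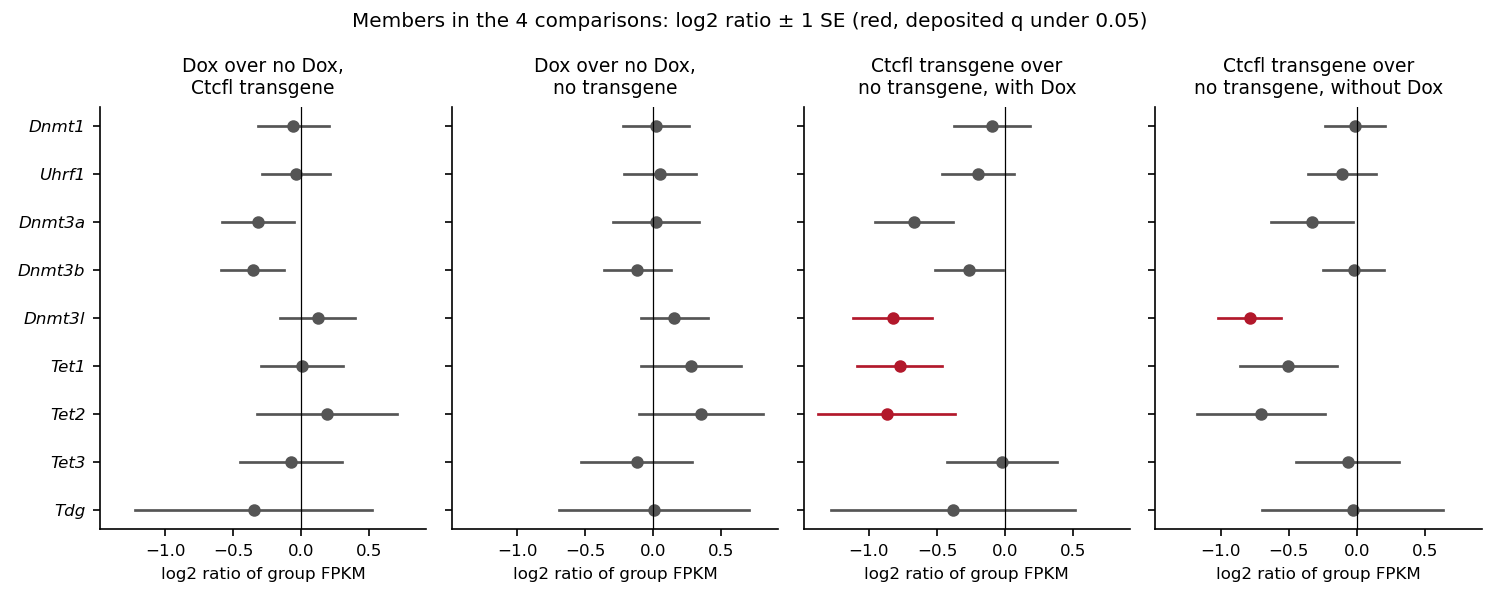
Log2 ratio of group FPKM (horizontal axes) of each member in the 4 comparisons, with bars of 1 SE taken from the authors' deposited statistic and red for a deposited q under 0.05. Dnmt3l, Tet1 and Tet2 are red with doxycycline, at -0.82, -0.77 and -0.87, Dnmt3l alone is red without it, at -0.79, and 0 members are red in the panels of doxycycline against no doxycycline.

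**Figure D3:**
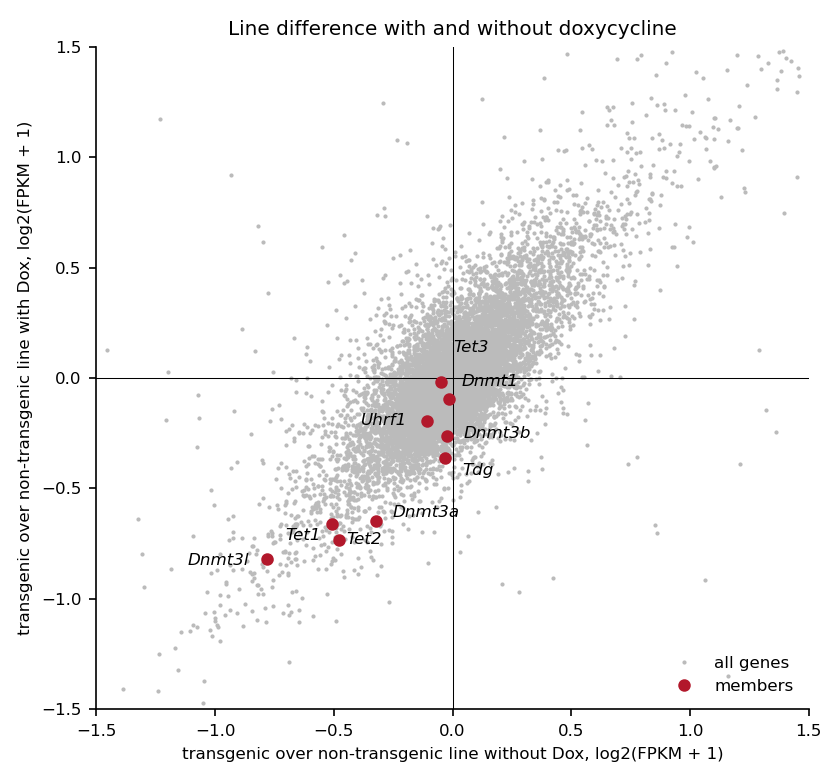
Difference of log2(FPKM + 1) between the transgenic and the non-transgenic clone with doxycycline (vertical axis) against the same without doxycycline (horizontal axis) for 12320 genes in grey and the 9 members in red, with 86 genes outside the axes. All members lie below 0 on both axes, Dnmt3l farthest out, with Tet1, Tet2 and Dnmt3a next to each other and the maintenance pair near the centre.

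Doxycycline in the transgenic clone, the comparison meant to address induction of Ctcfl, called 0 of the 9 members in the authors' deposited table. Among them 1 had an unadjusted p under 0.05, as did 1.08% of all tested genes. Over all genes 14 of 13003 were called, or 0.108%. Ctcfl itself was at 0.995 and 0.403 FPKM in the transgenic clone with and without doxycycline and at 0.498 and 0.513 FPKM in the non-transgenic clone. Each of these values lies under the minimum of 1 FPKM used for list medians, and no test of the change in Ctcfl is given here. How far the transgene was induced is therefore not known from these values. The member with the smallest p was Dnmt3b, with a log2 difference of -0.36 (SE 0.23, p = 0.0259, q = 0.692) in the authors' deposited table. Dnmt3a differed by -0.32 (SE 0.27, p = 0.0921) and Tdg by -0.35 (SE 0.87, p = 0.492) in the authors' deposited table. The members called between the clones had log2 differences between 0.01 and 0.19 here. Dnmt3l differed by 0.12 (SE 0.28, p = 0.540), Tet1 by 0.01 (SE 0.30, p = 0.970) and Tet2 by 0.19 (SE 0.51, p = 0.451) on the log2 scale in the authors' deposited table. For Dnmt1, Uhrf1 and Tet3 the log2 differences were -0.06, -0.04 and -0.08, with p between 0.737 and 0.818 in the authors' deposited table.

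In the non-transgenic clone, doxycycline likewise called 0 of the 9 members in the authors' deposited table, with 0 at an unadjusted p under 0.05, and 0.0% of 12908 genes, 14 of which (0.108%) reached such an unadjusted p. The log2 differences were 0.28 for Tet1 (SE 0.36, p = 0.150) and 0.35 for Tet2 (SE 0.46, p = 0.149) in the authors' deposited table. Those of Dnmt3l and Dnmt3b were 0.16 (p = 0.452) and -0.12 (p = 0.512) in the authors' deposited table. Dnmt1 and Dnmt3a differed by 0.02 each, Uhrf1 by 0.05, Tdg by 0.00 and Tet3 by -0.12.

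Whether the lines responded differently to doxycycline was tested per gene by a two-sided normal test of the difference between the deposited log2 ratios, adjusted over 12634 genes. It called 0 of the 9 members, with 0 at an unadjusted p under 0.05, and 18 genes of the table, or 0.142%. Of the 12634 genes 58 had an unadjusted p under 0.05. With standard errors taken from the deposited p-value, 0 genes of the table were called. For Dnmt3a the response of the transgenic clone minus that of the non-transgenic clone was -0.34 (95% interval -1.15 to 0.48, p = 0.417) by this test on the authors' deposited statistics. It was -0.24 for Dnmt3b (-0.90 to 0.42, p = 0.474) and -0.27 for Tet1 (-1.20 to 0.66, p = 0.569) by the same normal test on the authors' deposited statistics. For Dnmt3l it was -0.04 (-0.76 to 0.69, p = 0.921) and for Tet2 -0.17 (-1.51 to 1.18, p = 0.810) from the authors' deposited statistics, and the interval of Tdg, -2.54 to 1.83, was the widest of the members. The adjusted p was 0.999987 for every member. These intervals are wide enough to leave a difference of a factor of 1.5 undetected for each member.

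Around the members, genes of the same pathway were counted in 8 lists, each chosen with earlier results of these data known. In 7 of them the authors' deposited test called 0 genes in either comparison of the clones. In these 7, an unadjusted p under 0.05 was reached with doxycycline by 1 regulator of de novo methylation, 3 base excision genes or deaminases and 1 replication gene, and without doxycycline by 1 base excision gene or deaminase. Of all tested genes 7.9% reached it with doxycycline and 6.59% without it. The maintenance partners, which load Dnmt1 at the replication fork or work with it there, had 10 tested genes and a median difference on the log2(FPKM + 1) scale of -0.13 with doxycycline and -0.06 without it. Pcna, the sliding clamp, stood at 275 and 284 FPKM in the transgenic clone with and without doxycycline, against 324 and 322 FPKM in the non-transgenic clone. The histone deacetylase gene Hdac1 ran the other way, at 193 and 201 FPKM in the transgenic clone against 166 and 162 FPKM in the non-transgenic clone. For the 9 members the medians were -0.36 and -0.11, and for all genes -0.02 and -0.002.

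Regulators of de novo methylation had 10 tested genes, 0 called, with 1 at an unadjusted p under 0.05 with doxycycline (7.9% of all genes), and medians of -0.03 in both comparisons. The corepressor gene Trim28 stood at 611 and 644 FPKM in the transgenic clone with and without doxycycline, against 681 and 693 FPKM in the non-transgenic clone. Zfp57, a zinc finger protein that keeps methylation at imprinted regions, stood at 41.3 and 38.0 FPKM in the transgenic clone, against 64.8 and 50.4 FPKM in the non-transgenic clone. Its log2 difference was -0.65 with doxycycline (p = 0.00645, q = 0.302) and -0.41 without it (p = 0.0509) in the authors' deposited table, neither of which passed.

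Among readers of methylated CpG 10 genes were tested and 0 called, with medians of 0.06 with doxycycline and -0.01 without it, the second of which was 0.02 with no expression minimum. Mbd3, a subunit of the NuRD corepressor complex, stood at 160.0 and 163 FPKM in the transgenic clone and at 167 and 173 FPKM in the non-transgenic clone. Zbtb33, which encodes Kaiso, stood at 5.94 and 6.18 FPKM in the transgenic clone and at 5.56 and 5.03 FPKM in the non-transgenic clone.

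Downstream of Tdg, the list of base excision repair genes and deaminases had 16 of 17 genes tested and 0 called, with 3 at an unadjusted p under 0.05 with doxycycline and 1 without it (6.59% of all genes). Its medians were -0.08 in both comparisons. Parp1, a sensor of strand breaks, stood at 139 and 139 FPKM in the transgenic clone, against 156 and 150.2 FPKM in the non-transgenic clone. Apobec1, a cytidine deaminase that edits RNA, stood at 1.51 and 1.92 FPKM in the transgenic clone, against 3.45 and 3.39 FPKM in the non-transgenic clone (p = 0.0043 with doxycycline and 0.0226 without it in the authors' deposited table, q = 0.232 and 0.641). Gadd45a, named after its values were seen, stood at 26.8 and 27.8 FPKM in the transgenic clone, against 50.4 and 37.0 FPKM in the non-transgenic clone (p = 0.00065 and q = 0.0606 with doxycycline in the authors' deposited table). Its relative Gadd45b, also named after its values were seen, stood at 18.3 and 15.4 FPKM in the transgenic clone, against 9.71 and 11.1 FPKM in the non-transgenic clone (p = 0.0106 and q = 0.415 with doxycycline in the authors' deposited table). These stress-induced genes have been linked to DNA demethylation, and the pair differed in opposite directions without passing the threshold. Gadd45g, of the same family, had no unadjusted p under 0.05 between the clones in the authors' deposited table.

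Tet partners and enzymes that supply alpha-ketoglutarate, the cosubstrate of Tet enzymes, had 12 of 13 genes tested and 0 called, with medians of -0.06 with doxycycline and 0.02 without it. Idh3g, a subunit of isocitrate dehydrogenase, stood at 102 and 92.1 FPKM in the transgenic clone and at 87.8 and 86.5 FPKM in the non-transgenic clone. Slc23a1, a transporter of vitamin C, stood at 2.38 and 2.74 FPKM in the transgenic clone and at 1.99 and 2.04 FPKM in the non-transgenic clone. The S-adenosylmethionine cycle, which makes the methyl donor, had 14 tested genes and 0 called, with medians of -0.08 and -0.09. Ahcy, which removes the product S-adenosylhomocysteine, stood at 214 and 236 FPKM in the transgenic clone and at 223 and 225 FPKM in the non-transgenic clone. Gldc, of the glycine cleavage system, stood at 89.0 and 83.4 FPKM in the transgenic clone, against 110.4 and 104 FPKM in the non-transgenic clone.

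The list of germline genes that promoter methylation is known to silence was the 1 list of the 8 with called genes. Cyct, the testis form of cytochrome c, rose to 21.5 and 20.1 FPKM in the transgenic clone with and without doxycycline, against 2.31 and 2.25 FPKM in the non-transgenic clone. Sycp1, of the synaptonemal complex, rose to 3.67 and 3.73 FPKM in the transgenic clone, against 0.764 and 0.727 FPKM in the non-transgenic clone. The fold of Cyct was 9.32 with doxycycline and 8.94 without it, and that of Sycp1 4.80 and 5.13, each at a q of 0.00812 in the authors' deposited table, where 0.857% of all tested genes were called higher with doxycycline and 0.797% without it. Of the 21 listed genes 15 were tested with doxycycline and 16 without it, so 13 and 14 tested genes were not called, and the list medians were 0.11 and 0.12. Where 7.9% of all tested genes with doxycycline and 6.59% without it had an unadjusted p under 0.05, 3 and 4 genes of this list did in the authors' deposited table. The 1 of these that was lower in the transgenic clone was Hormad1, a meiotic chromosome axis gene named after its values were seen, at 1.89 FPKM in the transgenic clone without doxycycline against 3.34 FPKM in the non-transgenic clone (log2 -0.82, p = 0.0382, q = 0.844 in the authors' deposited table). Its most abundant gene, the X-linked homeobox gene Rhox5, stood at 315 and 304 FPKM in the transgenic clone and at 290.3 and 279.6 FPKM in the non-transgenic clone. Methylation itself was not measured in this series, so the RNA levels say nothing of the state of these promoters.

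**Figure D4:**
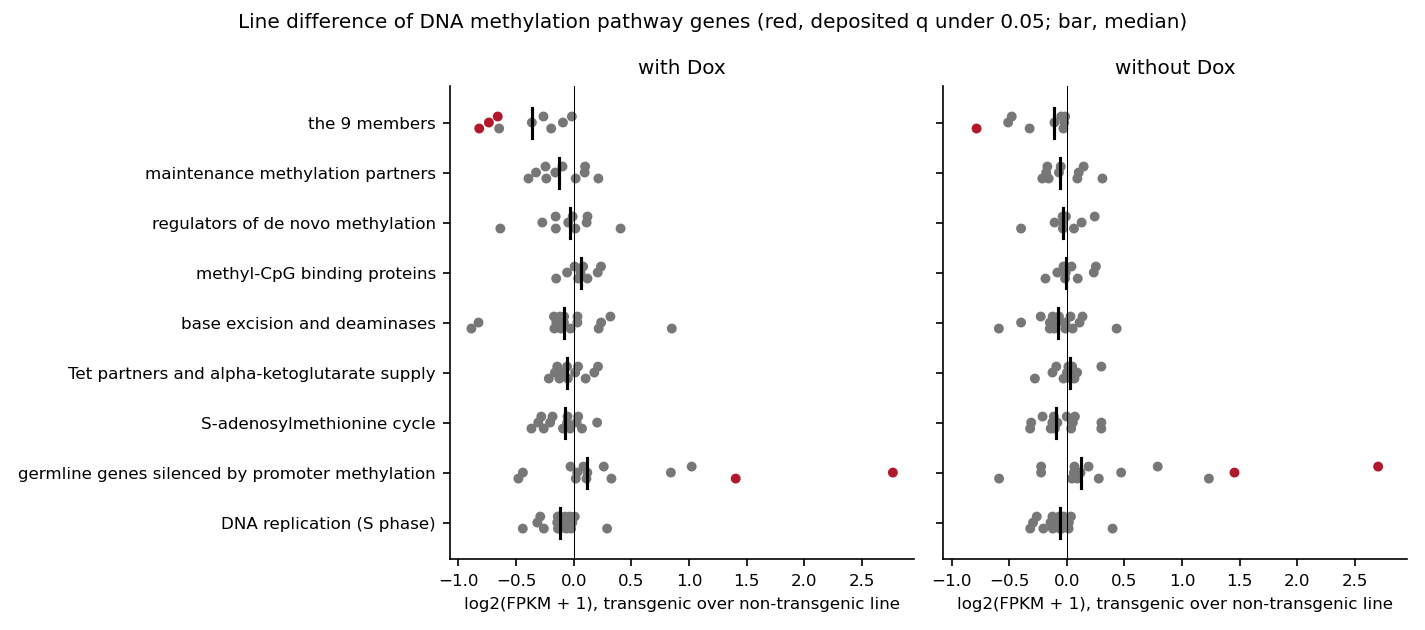
Difference of log2(FPKM + 1) between the transgenic and the non-transgenic clone (horizontal axes) with doxycycline and without it, with 1 point per gene at 1 FPKM or more in a group, a black bar at each list's median, and red for a deposited q under 0.05. The members' bar lies at -0.36 with doxycycline and -0.11 without it, the bars of the other lists lie between -0.13 and 0.12, and the red points beyond 1 are Cyct and Sycp1.

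Genes of DNA replication, whose levels follow the share of cells in S phase as those of Dnmt1 and Uhrf1 are known to do, had 19 tested genes and 0 called. With doxycycline 17 of 19 were lower in the transgenic clone and without it 15 of 19, where 53.8% and 50.5% of all genes were lower, with medians of -0.12 and -0.06, and their summed level was 1606 and 1652 FPKM in the transgenic clone, against 1751 and 1774 FPKM in the non-transgenic clone. Dnmt1 and Uhrf1 lay between -0.20 and -0.01 on the log2 scale in the same comparisons. The part of replication in the levels of the maintenance pair was not tested. Mcm7, a subunit of the replicative helicase, stood at 271 and 264 FPKM in the transgenic clone and at 269.6 and 269.8 FPKM in the non-transgenic clone. The cyclin gene Ccne2 stood at 4.16 and 4.54 FPKM in the transgenic clone and at 3.22 and 3.21 FPKM in the non-transgenic clone.

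Both lines expressed ES cell markers, and the clones also differed in markers of early lineages. All 14 ES cell identity genes had 1 FPKM or more in each group, summing to 3924 and 3634 FPKM in the transgenic clone with and without doxycycline and to 4095 and 3838 FPKM in the non-transgenic clone. In each comparison of the lines the pluripotency factors Nanog and Zfp42 rose and Sox2 and Nr0b1 fell in the transgenic clone, while 10 were not called. Over all tested genes 1.52% were called with doxycycline and 1.37% without it, in either direction. An unadjusted p under 0.05 was reached by 8 of the 14 with doxycycline and by 9 without it in the authors' deposited table. All tested genes reached it at 7.9% and 6.59%. On the log2(FPKM + 1) scale 10 of the 14 lay below 0 with doxycycline, at a median of -0.19. Without it 9 did, at a median of -0.24. Of all genes 53.8% and 50.5% lay below 0. The 10 primed epiblast markers, a state in which Dnmt3 enzymes are known to be high, summed to 307 and 359 FPKM in the transgenic clone and to 376 and 382 FPKM in the non-transgenic clone. Of these, Nodal rose and Foxd3 fell in both comparisons and Pou3f1 fell with doxycycline. An unadjusted p under 0.05 was reached by 5 of the 10 in each comparison in the authors' deposited table. Of all tested genes 7.9% reached it with doxycycline and 6.59% without it. On the log2(FPKM + 1) scale 3 of the 10 lay above 0 and 7 below it in each comparison. The medians were -0.39 with doxycycline and -0.17 without it. All 10 tested primitive streak markers had a higher level in the transgenic clone in each comparison, and 7 of them were called higher, where 0.857% of all tested genes were called higher with doxycycline and 0.797% without it. All 11 listed markers summed to 177 and 162 FPKM in the transgenic clone, against 19.7 and 20.9 FPKM in the non-transgenic clone. The 15 fibroblast markers of the feeders summed to 282 and 279 FPKM in the transgenic clone, against 215 and 219 FPKM in the non-transgenic clone. None was listed at 0, and 0 of 13 tested genes were called. Of these 13, 3 had an unadjusted p under 0.05 with doxycycline and 2 without it in the authors' deposited table. Each of those was higher in the transgenic clone, and 7.9% and 6.59% of all tested genes had such a p. On the log2(FPKM + 1) scale 10 of the 13 lay above 0 with doxycycline (median 0.14) and 11 without it (median 0.22). The part of these cell states, and of feeder cells left over, in the differences of Dnmt3l, Tet1 and Tet2 was not tested.

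With doxycycline over no doxycycline, 0 genes of all these lists were called in either clone in the authors' deposited table. In the transgenic clone 4 ES cell identity, 3 primed epiblast and 3 primitive streak genes had an unadjusted p under 0.05, as did 1.08% of all tested genes. In the non-transgenic clone 1 ES cell identity gene had, as did 0.108% of all tested genes. The ES cell identity list had 12 of 14 genes above 0 and a median of 0.30 on the log2(FPKM + 1) scale in the transgenic clone. In the non-transgenic clone it had 13 of 14 genes above 0 and a median of 0.21. Of all genes at 1 FPKM or more, 6188 of 12288 lay above 0 in the transgenic clone and 7102 of 12239 in the non-transgenic clone. The primed epiblast list had medians of -0.26 in the transgenic clone and -0.01 in the non-transgenic clone. Among the members 6 of 9 lay below 0 in the transgenic clone (median -0.05), and 2 of 9 in the non-transgenic clone (median 0.02). Of all genes 49.6% and 42.0% lay below 0, with medians of 0.001 and 0.02.

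Dnmt3l had the widest range of the members on the log2(FPKM + 1) scale, 0.94, and the genes with the most similar pattern over the 4 groups were sought among 6549 genes with a mean of 10 FPKM or more. Likeness was the distance between the 4 values on that scale, each gene centred on its own mean. The nearest was Gm10324 at a distance of 0.0646, with 28.3 and 27.2 FPKM in the transgenic clone and 51.7 and 48.2 FPKM in the non-transgenic clone. The microtubule protein gene Mtap1b followed at 0.0654, then Zfp534 at 0.0705, the lysosomal regulator Tfeb at 0.0760 and Snapc3 at 0.112. With 4 group values, 2 of them from each clone, this describes the pattern and no more.

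Positions are given in build GRCm38, which is mm10, from the GENCODE annotation, and all 9 members are protein coding genes. Dnmt1 lies on chromosome 9 (20907209 to 20959888, minus strand) and Uhrf1 on chromosome 17 (56303321 to 56323486, plus strand). Of the de novo group, Dnmt3a lies on chromosome 12 (3806007 to 3914443, plus strand), Dnmt3b on chromosome 2 (153649450 to 153687730, plus strand) and Dnmt3l on chromosome 10 (78041947 to 78063622, plus strand). Tet1 and Tdg lie on chromosome 10 as well (62804570 to 62908996, minus strand, and 82629828 to 82650799, plus strand). Tet2 lies on chromosome 3 (133463679 to 133545139, minus strand) and Tet3 on chromosome 6 (83362373 to 83459084, minus strand).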

How the data were processed

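Total RNA was sequenced as 75 bp single-end reads in 8 libraries, 2 per group, per the labels' protocols. TopHat2 2.0.8, Cufflinks 2.1.1 and build mm10 are named per the submitters' processing notes. Which annotation, strand setting and library normalization were used is not stated there. Each FPKM value the authors deposited is that of a gene in a group, with both libraries combined. They also deposited a test score per gene, a p-value no smaller than 5e-05 and a q-value. The deposited q-value matched Benjamini-Hochberg adjustment over 78127 tests of all 6 comparisons (largest difference 5.21e-07). The log2 fold change was turned, so that it is the transgenic over the non-transgenic clone and doxycycline over none.

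Calls use the authors' deposited test (tested, q under 0.05). From the deposited values, standard errors, the normal test of the difference between responses, list medians with a pseudocount of 1 FPKM over genes with at least 1 FPKM in either group, and shared 75-base words of transcripts were computed with Python 3.11.15, numpy 2.4.6, scipy 1.17.1 and pandas 2.3.3. In 20 simulations of the difference test on 12634 genes, errors were drawn from the same standard errors. A mean of 8.7 of 100 genes with a true log2 difference of 1 and 52.55 of 100 with one of 2 were called. Of 12434 unchanged genes a mean of 3.4 were called. Since the test divides by those standard errors, the simulations cannot show whether they fit the data. In the data 58 of 12634 genes had an unadjusted p under 0.05 by this test, a share well below 0.05 itself.

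Group values carry no SD, and p-values measure only the spread that the authors' model assigned to 2 libraries per group. The parts of that spread cannot be told apart from the deposited values. The members and the gene lists were chosen with earlier results of these data known. All members were named. Other list genes were named where called, or where most abundant or most different between the clones without doxycycline in their list, and likeness named the 5 nearest genes. Gadd45a, Gadd45b, Gadd45g and Hormad1 fall outside this rule and were named after their values were seen. Alternatives were the adjustment within a comparison, the pseudocount, the scale of the groups, the expression minimum and the standard error.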

Additional observations from a re-analysis of the deposited data

How the results depend on the processing

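With normal p-values of the deposited statistic, a setting added after seeing the data, 0 members were called with doxycycline in place of 3, and 0 without doxycycline in place of 1. The cause of the gap between the deposited statistic and the deposited p-value was not tested. Adjustment within a comparison left the calls of Dnmt3l, Tet1 and Tet2 as they were and added Dnmt3a with doxycycline (Benjamini-Hochberg adjusted p = 0.0475 from the authors' deposited table). Scaling by the upper quartile or centring on the median of all genes turned the sign of 5 member values, all within 0.03 of 0 on the log2 scale and none of them called. They were Tet1 with doxycycline in the transgenic clone, Dnmt1, Dnmt3a and Tdg with doxycycline in the non-transgenic clone, and Tet3 between the clones with doxycycline. Pseudocounts of 1 and 0.1 turned no member value. Standard errors taken from the deposited p-value left 0 of 9 members called for a difference between responses, and 0 genes of the table in place of 18. A minimum of 5 FPKM left 0 of the 7 members it kept called, since Tet2 and Tet3 lie below it. Of the medians of lists, those of methyl-CpG binding proteins without doxycycline between the clones and in the non-transgenic clone, and of primitive streak genes with doxycycline in either clone, changed sign with the expression minimum. No paired analysis by title tag was possible because the deposited values combine both libraries in 1 value per group. For the same reason no library could be left out. Unknown depth limits the low genes Tet2 and Tet3, and shared sequence limits Tdg.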
